A study of Homo sapiens with 30 samples.

Results

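The 6 run-on libraries of hNABP1 KO cells were compared here, 3 made with nucleotides (with NTP) against 3 made without them (no NTP). They were chosen by their labels and make up 6 of the 18 run-on libraries and 6 of the 30 libraries of the series. All come from nuclei of HT1080, a human fibrosarcoma line, at passages 10 to 15, with no treatment applied to the cells. Both groups carry the same knockout, so the nucleotides in the run-on reaction are the labelled difference between them. The sources used here do not give the kind of knockout, whether the line is 1 clone, or what the no NTP reaction contained. The labels number 3 repeats per group but speak of 2 independent experiments, so p-values count libraries and measure a spread that may be technical.

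In a global run-on assay (GRO-seq), polymerases already engaged on DNA in isolated nuclei go on for a short stretch in the presence of bromouridine, and an antibody then recovers the RNA that carries it for sequencing. The read-out holds products of RNA polymerase I (the ribosomal RNA precursor), polymerase II (protein-coding genes, long non-coding RNAs, most small nuclear RNAs) and polymerase III (RMRP, 7SK, the signal recognition particle RNA). A reaction that lacks nucleotides serves as the control for RNA recovered without extension. hNABP1 (hSSB2, gene NABP1) is a single-stranded DNA binding protein that, like its paralogue hNABP2, joins INTS3 and INIP in the SOSS complex, and INTS3 also ties it to Integrator, the complex that cleaves and ends many nascent transcripts.

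The libraries were shallow and very unequal. The with NTP libraries held 11091, 7553 and 115528 counts over genes in repeats 1, 2 and 3, and the no NTP libraries 6695, 6374 and 23865. Repeat 3 with NTP thus had over 10 times the counts of either other with NTP library. Over the 4548 genes with 10 or more counts, its counts scaled to a common library total (CPM, on a log2 scale with 1 added) correlated with the other 5 libraries at r between -0.294 and -0.152, while those 5 correlated with each other at 0.269 to 0.482. These values are across genes, which are not independent, and depth differs between the libraries. The filter on the sum also lets a gene in through repeat 3 with NTP alone. Such genes are scarce in the other libraries, which can lower the r of repeat 3 with NTP, so these values do not by themselves show a different content. For its depth, the values of repeat 3 are printed apart from those of repeats 1 and 2. Means, SDs and tests over libraries include repeat 3 unless its omission is stated. The targeted gene, NABP1, had 0, 1 and 18 counts with NTP and 0, 1 and 1 without, and WT libraries had 1, 0 and 19 with NTP and 0, 0 and 1 without. Counts over a gene cannot check a knockout whose kind is not given, and at this depth no loss of NABP1 signal was detectable. NABP2 had 0, 0 and 6 counts with NTP and 0, 0 and 1 without.

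Ribosomal RNA, the product of polymerase I, took a smaller share of the counts with NTP in repeats 1 and 2 and a larger one in repeat 3. Its share was 3.77% with NTP against 9.08% without in repeat 1, and 3.55% against 8.69% in repeat 2. In repeat 3 it was 7.17% with NTP and 0.277% without. The exact 95% binomial (Clopper-Pearson) intervals of the 2 libraries did not overlap in any repeat, but such intervals cover counting error only. Taken over libraries, the share was 4.83% ± 2.03 (SD, n = 3) with NTP and 6.02% ± 4.97 (SD, n = 3) without, and the groups overlapped (exact two-sided permutation test, p = 0.8). With 3 libraries against 3 that test cannot go below 0.1. These values merge repeats of opposite direction: over repeats 1 and 2 alone the mean difference was -5.23 percentage points.

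The make-up of the ribosomal RNA counts also set repeat 3 apart. RNA45S5, the precursor with its spacers, had 72, 42 and 5647 counts with NTP and 66, 82 and 36 without. RNA28S5, the large mature subunit RNA that lies inside it, had 346, 225 and 2528 counts with NTP and 542, 470 and 29 without. The ratio of RNA45S5 to RNA28S5 counts was 0.208 and 0.187 with NTP in repeats 1 and 2, against 0.122 and 0.174 without. In repeat 3 it was 2.23 with NTP and 1.24 without, so both repeat 3 libraries lay above all 4 others. These 2 genes are nested and present in many copies, so how reads were split between them depends on the authors' counting.

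Polymerase III structural RNAs had a lower share with NTP in all 3 repeats. Their share was 0.929%, 1.13% and 0.134% with NTP against 1.96%, 2.45% and 0.193% without. The means were 0.729% ± 0.525 and 1.53% ± 1.19 (SD, n = 3 each), and the difference did not pass (exact two-sided permutation test, p = 0.3, adjusted p = 0.833 over 10 classes). Both repeat 3 libraries sat below all 4 others, so the groups overlapped although each repeat went the same way. RMRP, the RNA of the RNase MRP enzyme, which processes ribosomal RNA, had 53, 39 and 66 counts with NTP and 88, 100 and 9 without. RN7SK, the scaffold that holds the elongation factor P-TEFb inactive, had 25, 43 and 58 counts with NTP and 39, 55 and 33 without. As a share of its library RN7SK was lower with NTP in all 3 repeats, while RMRP was lower in repeats 1 and 2 only. Other members rested on a few counts. RN7SL1, the signal recognition particle RNA, had 11, 1 and 13 counts with NTP and 1, 1 and 1 without, and RPPH1, the RNA of RNase P, had 10, 1 and 6 against 0, 0 and 3. RNY1 had no count in any of the 6 libraries; a count of 0 in repeat 3 with NTP allows a share of up to 0.00260%, and in repeat 1 with NTP of up to 0.0270%. Without the 10 genes that had the most counts over the 6 libraries, the difference for the class turned to 0.0706 percentage points higher with NTP.

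Protein-coding genes took a larger share with NTP in all 3 repeats. Their share was 73.5%, 72.4% and 83.4% with NTP and 59.3%, 69.1% and 76.8% without. The difference was 14.2, 3.27 and 6.56 percentage points in repeats 1, 2 and 3. Means were 76.4% ± 6.05 and 68.4% ± 8.79 (SD, n = 3 each), and the groups overlapped because repeat 3 without NTP lay above repeats 1 and 2 with NTP (exact two-sided permutation test, p = 0.4, adjusted p = 0.833). With ribosomal RNA genes taken out of the totals, repeat 2 was level, at 75.1% with NTP and 75.7% without, while repeats 1 and 3 stayed apart at 76.4% against 65.2% and 89.8% against 77.1%.

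Genes annotated as antisense RNAs, which lie on the strand opposite a named gene, differed in direction between the repeats. They held 12.6% of counts with NTP and 18.8% without in repeat 1, and 10.8% against 9.44% in repeat 2. In repeat 3 they held 3.22% with NTP and 12.2% without, the widest gap of the 3. The means of 8.87% ± 4.97 and 13.5% ± 4.80 (SD, n = 3 each) did not differ beyond the spread (exact two-sided permutation test, p = 0.5, adjusted p = 0.833). Uncharacterised genes and pseudogenes had the same order, at 5.60%, 7.71% and 3.84% with NTP and 6.30%, 6.34% and 8.04% without.

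The groups overlapped in each of the smaller classes. MicroRNA genes held 0.451%, 0.424% and 0.319% of counts with NTP and 0.493%, 0.377% and 0.503% without. Small nucleolar and Cajal body RNAs, which guide the modification of ribosomal and small nuclear RNA, held 0.261%, 0.424% and 0.0805% with NTP and 0.269%, 0.298% and 0.142% without. Replication-dependent histone genes held 0.252%, 0.106% and 0.135% with NTP and 0.299%, 0.141% and 0.0754% without, from as few as 8 counts in a library. Small nuclear RNAs, the RNAs of the spliceosome, rested on 1 to 7 counts in repeats 1 and 2, which is too few to read a difference from. None of the 10 classes passed the test over libraries, with adjusted p between 0.833 and 1 in the exact permutation tests.

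**Figure D1:**
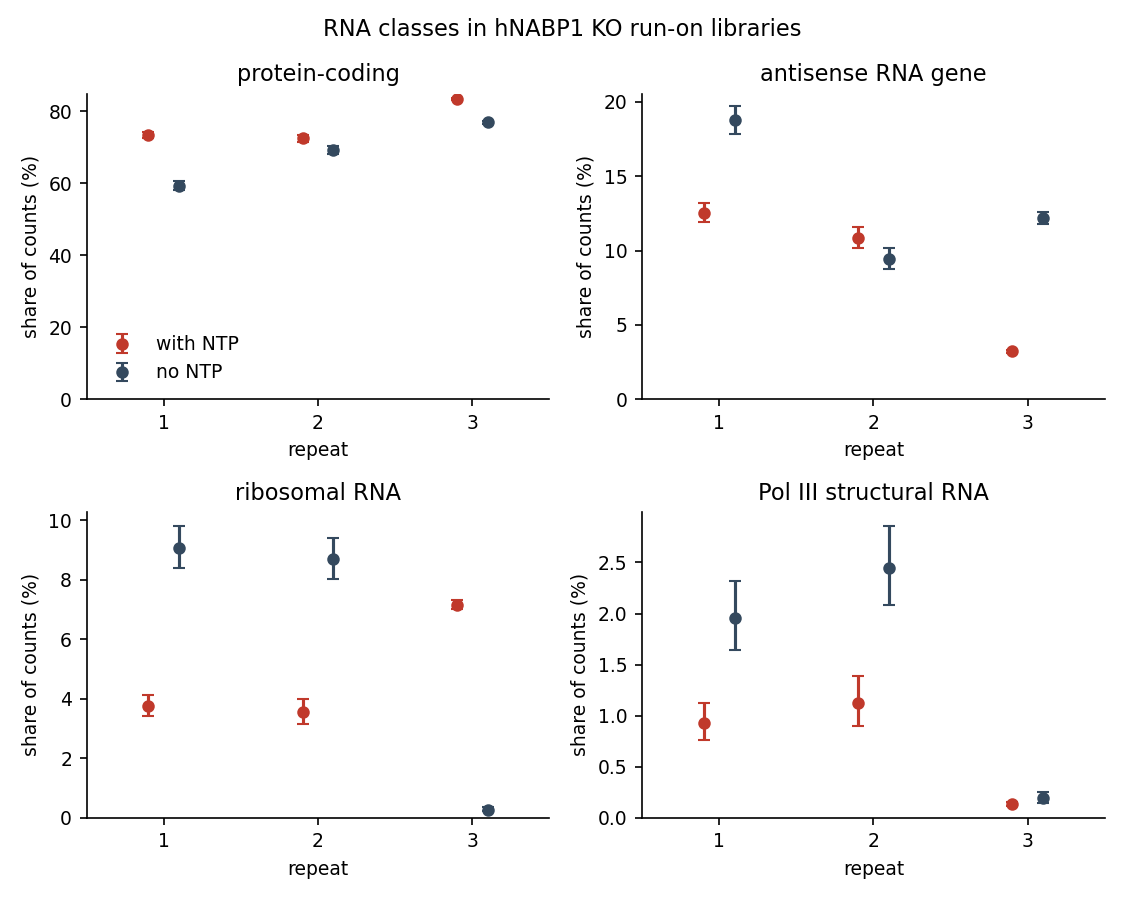
Share of gene counts (y axis, percent) held by 4 RNA classes in each repeat (x axis) of hNABP1 KO cells, with NTP in red and no NTP in dark blue; points are single libraries and bars are exact 95% binomial intervals. Protein-coding genes are higher and Pol III structural RNAs lower with NTP in each repeat, while ribosomal RNA is lower with NTP in repeats 1 and 2 (3.77% and 3.55% against 9.08% and 8.69%) and higher in repeat 3 (7.17% against 0.277%).

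Because the totals differed so widely, detection was compared at 1 depth, as the number of genes expected to have a count when 6374 counts are drawn from each library. At that depth 3492, 2603 and 4065 genes were detected with NTP in repeats 1, 2 and 3, and 2577, 2736 and 2851 without. Nucleotides thus went with 915 more genes in repeat 1, 133 fewer in repeat 2 and 1213 more in repeat 3. The 3 no NTP libraries lay close together, at 2722 ± 138 genes (SD, n = 3), and the with NTP libraries spread over 3387 ± 736 (SD, n = 3). Repeat 2 with NTP fell among the no NTP libraries, so the groups overlapped and the difference of 665 genes did not pass (exact two-sided permutation test, p = 0.3). Over repeats 1 and 2 alone it was 391 genes. When 2 counts were asked for, the libraries came closer, at 1039, 997 and 1049 genes with NTP and 853, 960 and 1013 without.

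Most of the added genes were protein-coding. At the common depth, 3014, 2103 and 3648 protein-coding genes were detected with NTP and 2176, 2284 and 2357 without. Antisense RNA genes numbered 211, 209 and 131 with NTP and 197, 201 and 216 without, so repeat 3 with NTP detected the fewest antisense genes while it detected the most genes in all. Long non-coding RNA genes outside the antisense class numbered 64.1, 57.3 and 85.0 with NTP and 43.8, 56.0 and 56.5 without. Here every with NTP library lay above every no NTP library, although repeat 2 with NTP did so by less than 1 gene. The means were 68.8 ± 14.4 and 52.1 ± 7.19 (SD, n = 3 each), with the smallest p that the exact permutation test can give (p = 0.1, adjusted p = 0.786 over all genes and the 10 classes).

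**Figure D2:**
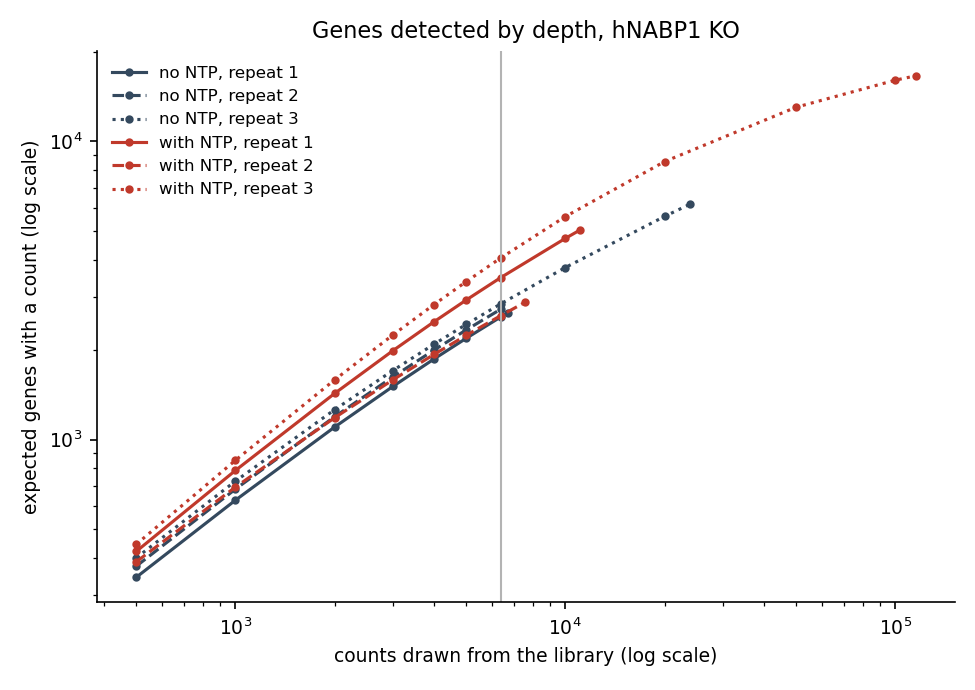
Expected number of genes with a count (y axis, log scale) against the number of counts drawn (x axis, log scale) for the 6 hNABP1 KO libraries, with the common depth of 6374 counts as a grey line. The curves of repeats 1 and 3 with NTP run above the others at every depth plotted, and repeat 2 with NTP runs among the no NTP curves (2603 genes against 2577 to 2851).

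Counts were also less concentrated with NTP. At the common depth the 10 leading genes of each library held 11.5%, 12.2% and 8.74% of counts with NTP and 24.3%, 17.8% and 11.9% without. The 100 leading genes held 23.9%, 31.4% and 17.4% with NTP and 40.9%, 34.0% and 28.4% without. Both shares were lower with NTP in all 3 repeats, at 10.8% ± 1.82 against 18.0% ± 6.21 for the 10 genes and 24.2% ± 7.0 against 34.4% ± 6.27 for the 100 (SD, n = 3 each). Neither passed (exact two-sided permutation test, p = 0.2 for each, adjusted p = 0.2 over both). With ribosomal RNA genes left out, the difference for the 10 leading genes was -6.63 in place of -7.17 percentage points (exact permutation test, p = 0.1).

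Which genes were detected also differed. Of the genes detected in either of 2 libraries at the common depth, repeat 3 with NTP shared between 14.0% and 16.8% with each of the other 5 libraries. Any 2 of those 5 shared between 21.5% and 30.02%. The closest pair was with NTP and no NTP of repeat 2, at 30.02%, and the second was repeat 2 with NTP and repeat 3 without, at 28.7%. The no NTP library of repeat 3 thus shared more detected genes with repeat 2 than with its own with NTP library, at 14.1%.

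The genes with the most counts were of a different kind in repeat 3 with NTP. VIM-AS1, a long non-coding RNA on the minus strand of chromosome 10 (17214239 to 17229985, GRCh38.p14) opposite the vimentin gene, held 4.58%, 1.68% and 0.103% of counts with NTP. Without NTP it held 8.99%, 1.57% and 3.42%. It thus held over 1% of the counts of every library except repeat 3 with NTP, with 508, 127 and 119 counts with NTP and 602, 100 and 816 without. VIM itself, the intermediate filament protein of mesenchymal cells, had 6, 6 and 47 counts with NTP and 4, 1 and 7 without. COL5A1, a fibrillar collagen chain, took 0.478%, 3.14% and 0.0866% with NTP and 0.463%, 2.82% and 4.14% without. Its counts of 53, 237 and 100 with NTP and 31, 180 and 988 without followed the repeat in repeats 1 and 2, whichever way the reaction was run.

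Other pairs of opposite genes were also counted unequally. SNX22, a sorting nexin gene on chromosome 15, had 68, 20 and 23 counts with NTP and 72, 22 and 79 without. PPIB, the endoplasmic reticulum cyclophilin that overlaps it on the opposite strand, had 5, 0 and 21 with NTP and 0, 1 and 0 without. TTN, the giant protein of striated muscle, had 19, 36 and 27 counts with NTP and 15, 28 and 93 without, where its antisense gene TTN-AS1 had 2 counts in repeat 3 with NTP and 0 in the other 5 libraries. At THAP7-AS1 and THAP7, which had 214 and 154 counts in repeat 3 with NTP, both strands were counted at like levels, and the other 5 libraries held 0 to 4 counts of each. The library kit marks the strand, per the labels, but the sources used here do not give the strand setting of the counting, so these values go by the name of the gene that the authors counted and the part of that setting in them was not tested.

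Summed over 979 gene pairs whose symbols differ by an antisense suffix, the antisense gene held most of the counts in 5 of the 6 libraries. The antisense share was 71.7% (95% Clopper-Pearson interval 69.7 to 73.7) with NTP and 83.0% (81.0 to 84.9) without in repeat 1. In repeat 2 it was 62.0% (59.3 to 64.7) with NTP and 58.7% (55.5 to 61.8) without, with intervals that overlap. Repeat 3 gave 37.6% (36.6 to 38.6) with NTP and 67.1% (65.6 to 68.5) without. Means were 57.1% ± 17.6 and 69.6% ± 12.3 (SD, n = 3 each), and the difference did not pass (exact two-sided permutation test, p = 0.5). Without VIM and VIM-AS1 the difference was -9.46 in place of -12.5 percentage points.

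Both repeat 3 libraries of hNABP1 KO cells were set beside their counterparts in the other genotypes. The antisense share of repeat 3 was 34.3% and 35.5% with NTP in WT and hNABP2 KO cells, close to the 37.6% of hNABP1 KO cells. Without NTP it was 48.0% in WT, 36.5% in hNABP2 KO and 67.1% in hNABP1 KO cells. At the depth of 5272 counts that all 18 libraries reach, repeat 3 without NTP detected 3582 genes in WT, 4228 in hNABP2 KO and 2518 in hNABP1 KO cells, the last close to the 2265 and 2413 of repeats 1 and 2. With NTP it detected 4320 genes in WT, 4296 in hNABP2 KO and 3522 in hNABP1 KO cells. That last library also held more ribosomal RNA, 7.17% against 0.684% in WT and 0.911% in hNABP2 KO cells, and more of its counts in its 10 leading genes, 8.85% against 1.40% and 1.79%. Each of these sets is 1 library per genotype, with no replicate check. Depth differed as well, as the no NTP libraries of repeat 3 held 19247, 79429 and 23865 counts in WT, hNABP2 KO and hNABP1 KO cells. Of these, the hNABP2 KO library was the deepest and the WT library the shallowest. The part of depth in the result was not tested. The with NTP libraries of repeat 3 held 164357, 115923 and 115528.

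**Figure D3:**
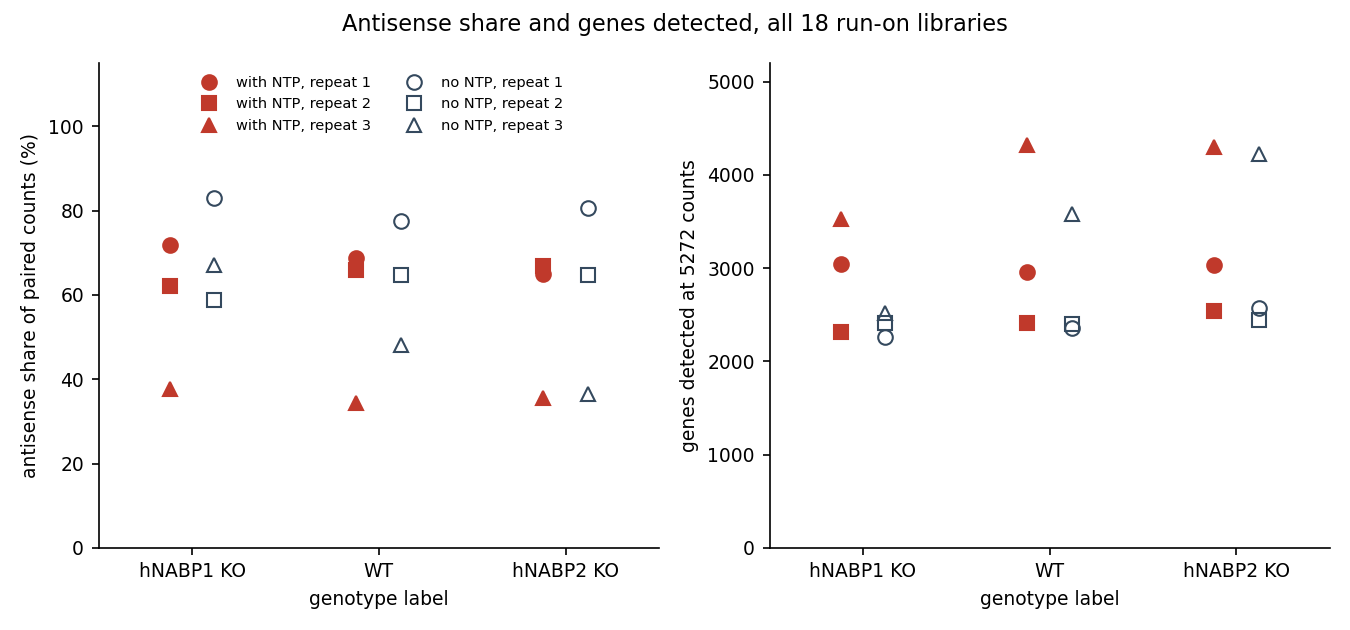
Share of paired counts on the antisense gene (left, percent) and genes detected at 5272 counts (right) for the 18 run-on libraries by genotype label (x axis), with NTP filled and no NTP open, and the marker shape giving the repeat. The open triangle of hNABP1 KO (repeat 3 without NTP, 67.1% and 2518 genes) lies with the no NTP libraries of repeats 1 and 2, while those of WT (48.0%, 3582 genes) and hNABP2 KO (36.5%, 4228 genes) lie below them on the left and above them on the right.

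No gene passed the test between the reactions when all libraries were fitted together with no term for the repeat. Of 211 genes with enough counts to test, edgeR's quasi-likelihood test called 0 after Benjamini-Hochberg adjustment at 0.05 (0.0% called), 6 had an unadjusted p under 0.05 (2.84%), and the smallest adjusted p was 0.812. DESeq2 called 0 as well, with 7 genes under an unadjusted p of 0.05. The scaling set the centre of the fold changes: their median was 0.12 on the log2 scale with TMM factors and -0.58 on library totals, a shift that direction counts below carry. A repeat term within each genotype also gave 0 calls. A repeat term shared by the genotypes, chosen after seeing the data, gave 5 calls, with AHNAK, EIF4B, LONP1 and TIPARP-AS1 among them. The genes of lowest p in either direction, 10 on each side, did not pass in the main fit, and 19 of these 20 are described.

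TIPARP-AS1, the antisense gene at TIPARP (a mono-ADP-ribosyltransferase), had the smallest p. It had 9, 8 and 48 counts with NTP and 3, 2 and 7 without. In CPM these were 811, 1059 and 415 with NTP and 448, 314 and 293 without, higher with NTP in all 3 repeats. The groups still overlapped, because repeat 3 with NTP lay below repeat 1 without. Its log2 fold change was 2.59 ± 0.782 (SE), with adjusted p = 0.812 in edgeR's quasi-likelihood test. It was 1.55 without repeat 3 with NTP, 1.45 without repeat 3 of both groups and 1.10 on library totals. Only 2 of the 211 genes (0.948%) had a higher CPM with NTP in all 3 repeats, the other being TUBB, a beta-tubulin gene named here after its values were seen, with 11, 1 and 22 counts with NTP and 6, 0 and 1 without.

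None of the other 8 genes described on the higher side was higher in CPM in all 3 repeats. LONP1, the mitochondrial matrix protease, had 3, 15 and 200 counts with NTP and 3, 8 and 16 without, so its CPM was higher in repeats 2 and 3 and lower in repeat 1 (log2 fold change 3.07 ± 1.13 SE). That fold change was 0.39 without repeat 3 with NTP and 0.76 on library totals. ARMC5, an armadillo repeat protein, had 5, 6 and 86 counts with NTP and 2, 6 and 14 without, and its log2 fold change was 0.13 both without repeat 3 with NTP and on library totals. AHNAK, a giant scaffold protein, had 26, 0 and 7 counts with NTP and 1, 1 and 1 without, and EIF4B, a translation initiation factor, had 14, 0 and 18 against 2, 0 and 0. The log2 fold change of AHNAK was 3.75, and 1.59 without repeat 1 with NTP. For both genes, repeat 2 with NTP had no count, which allows a share of up to 0.0397%. RNA45S5 had the highest log2 fold change, 4.45 ± 1.65 (SE), and repeat 3 alone gave it: without repeat 3 of both groups it was -0.63. SMPD4, a sphingomyelinase, had 15, 7 and 32 counts with NTP and 8, 3 and 9 without. HCFC1R1 had 6, 7 and 53 counts with NTP and 4, 1 and 17 without, and CCDC85B had 10, 8 and 90 against 6, 5 and 24. On library totals CCDC85B had a log2 fold change of 0.01, so its place here rested on the scaling. The adjusted p of these 8 genes lay between 0.959 and 0.982.

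On the lower side the no NTP library of repeat 3 carried several genes. SPNS2, the exporter of sphingosine-1-phosphate, had 7, 24 and 16 counts with NTP and 6, 19 and 165 without (log2 fold change -1.16 ± 0.694 SE). CSNK1D, casein kinase 1 delta of the circadian clock, had 6, 5 and 19 counts with NTP and 3, 2 and 134 without. The olfactory receptor gene OR52D1 had 1, 11 and 4 against 2, 8 and 69, and DPP9-AS1 had 5, 6 and 4 against 5, 3 and 43. LOC100128494, an uncharacterised gene, had 26, 16 and 25 counts with NTP and 23, 12 and 179 without. In each of these 5 genes the no NTP library of repeat 3 held more counts than the other 5 libraries together. Without that library the log2 fold change was -0.18 for SPNS2 and 1.41 for CSNK1D, the latter the opposite direction. ACADVL, which starts the mitochondrial oxidation of long-chain fatty acids, was lower in CPM with NTP in all 3 repeats, with 1, 6 and 11 counts against 4, 8 and 41. FTSJ3, a ribosomal RNA methyltransferase, was too, with 10, 2 and 2 against 19, 5 and 13. NUCB1-AS1 had 7, 4 and 2 counts with NTP and 8, 3 and 39 without.

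Groups that did not overlap were seen only on the lower side of the tested genes. In 7 of the 211 genes (3.32%) every with NTP library had a lower CPM than every no NTP library, and in 0 of them (0.0%) a higher one. Named after their values were seen, 6 of these were CTBP1-AS, COL4A2-AS1, MBNL1-AS1, LOC101929516, DLG4 and CNP. CTBP1-AS, antisense to a transcriptional corepressor gene, had 9, 5 and 6 counts with NTP and 12, 7 and 34 without. COL4A2-AS1, antisense to a basement membrane collagen chain, had 4, 5 and 4 counts with NTP and 8, 5 and 20 without. In CPM, DLG4 (the synaptic scaffold PSD-95) had 631, 794 and 121 with NTP and 1344, 1098 and 1215 without, with repeat 3 with NTP far below the rest. Lower CPM in all 3 repeats was seen in 37 of the 211 genes (17.5%). To be tested, a gene needed counts in several shallow libraries, so these 211 are not a sample of all genes.

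Over the 4548 genes with 10 or more counts the balance was different. There, the groups did not overlap in 258 genes (5.67%), of which 170 (3.74% of all) were higher with NTP and 88 (1.93%) lower, and 236 (5.19%) were higher and 227 (4.99%) lower in all 3 repeats. The 170 higher genes rested on few counts outside repeat 3: they summed to 302, 236 and 3831 counts with NTP and to 9, 8 and 144 without. Their median gene had 1, 1 and 13 counts with NTP and 0, 0 and 1 without, and 77 of them had no count in any no NTP library. The 2 of them with the most counts were C3orf58, with 2, 1 and 205 counts with NTP and 0, 0 and 3 without, and C19orf24, with 2, 1 and 139 against 0, 0 and 1. FIGNL2, the fourth, had more in the shallow libraries, with 4, 6 and 103 counts with NTP and 0, 1 and 4 without. These were named after their values were seen, and a filter on the sum lets a gene in through repeat 3 with NTP alone.

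**Figure D4:**
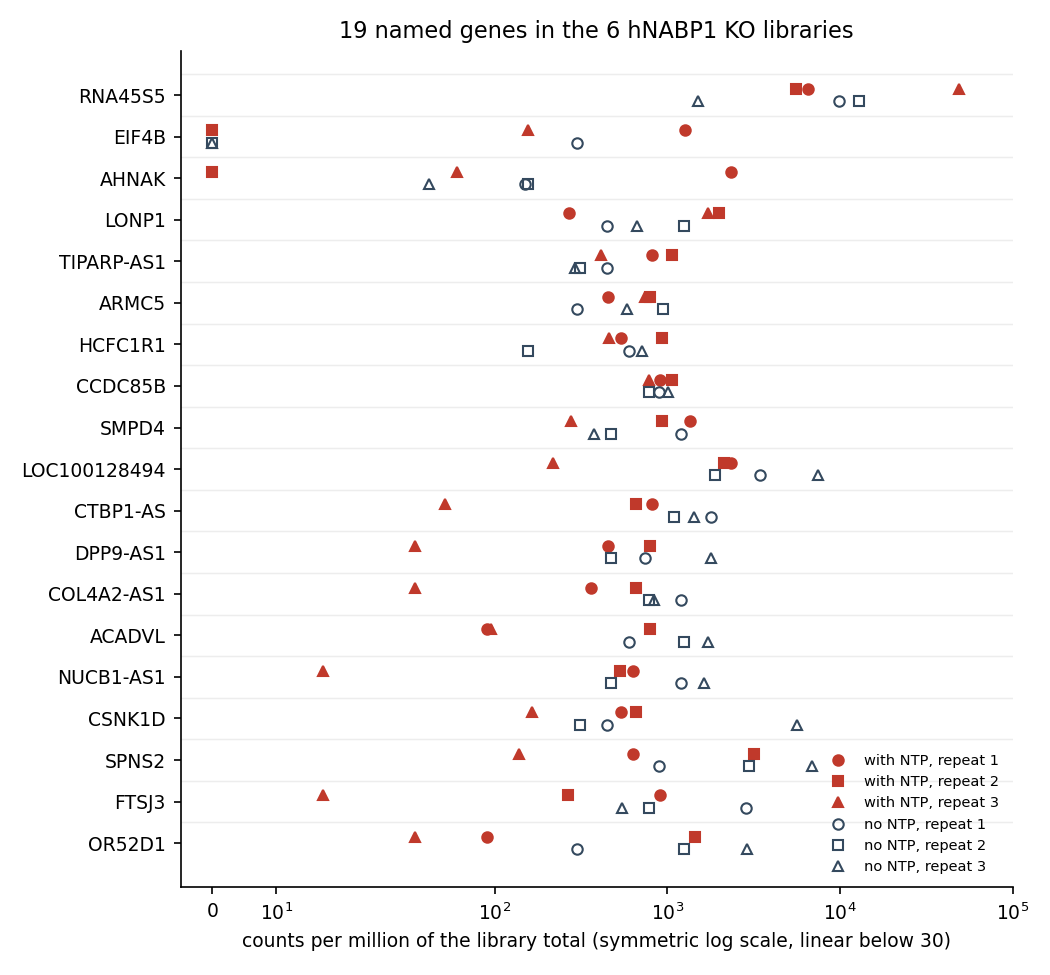
CPM of 19 of the 20 genes of lowest p in the 6 hNABP1 KO libraries, on a symmetric log axis that is linear below 30; with NTP is filled red, no NTP open dark blue, and the marker shape gives the repeat. TIPARP-AS1 (811, 1059 and 415 against 448, 314 and 293) is higher with NTP in each repeat, and the open triangles of SPNS2, CSNK1D, OR52D1 and LOC100128494 are the rightmost markers of those genes.

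Lists of related genes held few counts in repeats 1 and 2. The SOSS genes NABP1, NABP2, INTS3, INTS6 and INIP summed to 3, 3 and 47 counts with NTP and 0, 2 and 4 without, and the 12 other Integrator subunits to 5, 4 and 109 against 4, 5 and 11. INTS7 alone had 49 counts in repeat 3 with NTP and 0 in the other 5 libraries. As shares, the Integrator list held 0.0451%, 0.0530% and 0.0943% with NTP and 0.0597%, 0.0784% and 0.0461% without, so it was higher with NTP in repeat 3 only. The SOSS list held 0.0270%, 0.0397% and 0.0407% with NTP and 0%, 0.0314% and 0.0168% without. It was higher with NTP in all 3 repeats, but on very few counts. None of the genes of either list had enough counts to be tested. Of the 7 with 10 or more counts none was higher or lower in all 3 repeats. Of all 4548 genes with that many counts, 5.19% were higher and 4.99% lower, so 7 genes are too few to read a difference from.

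Pausing and elongation factors, such as the NELF, DSIF and P-TEFb subunits, held 0.135%, 0.0927% and 0.273% with NTP and 0.105%, 0.0941% and 0.147% without. Of these 21 genes, 9 had 10 or more counts and 1 of those was higher in all 3 repeats, against 5.19% of all genes with that many counts. The 16 immediate early genes, which respond to stimuli within minutes, held 8, 1 and 178 counts with NTP and 0, 4 and 6 without. Cytosolic ribosomal protein genes held 0.811%, 0.159% and 0.280% with NTP and 0.627%, 0.314% and 0.142% without, so the order turned in repeat 2. Of 81 ribosomal protein genes with a count, 14 had 10 or more, and 0 of those were higher or lower in all 3 repeats, where 5.19% and 4.99% of all such genes were. Nuclear-retained long non-coding RNAs were scarce: MALAT1, of nuclear speckles, had 7, 2 and 5 counts with NTP and 2, 2 and 2 without, and NEAT1, the scaffold of paraspeckles, had 2, 4 and 31 against 1, 4 and 2.

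Cell type markers gave the following levels. The 16 mesenchymal markers held 1.15%, 3.24% and 0.190% of counts with NTP and 0.836%, 3.00% and 4.21% without, of which COL5A1 alone held the shares given above, and COL5A2 was at 0. The 8 epithelial markers held 0.0173% to 0.280% with NTP and 0.0471% to 0.179% without, with EPCAM at 0. The 8 leukocyte markers held at most 0.0270%, with PTPRC, CD3E and LYZ at 0, and the 8 neural markers 0.0147% to 0.0628%. Genes of other tissues were nonetheless among those with many counts. Muscle and epidermal structural genes such as TTN, MYH13, FLG and HRNR, a list drawn up after the leading genes were seen, held 0.460%, 2.42% and 0.128% with NTP and 0.433%, 2.12% and 1.90% without. The SPATA31 family, testis genes with near-identical copies whose reads the counting could split, held 0.0451%, 1.11% and 0.0164% with NTP and 0.0299%, 0.832% and 1.23% without. Both lists were high in both reactions of repeat 2 and in repeat 3 without NTP, and low in the other 3 libraries.

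The deposited peak lists of the with NTP libraries, which mark where reads pile up, gave a second view of repeat 3. They held 518, 431 and 9965 peaks in repeats 1, 2 and 3. Peaks were called per library, and the fold of a peak is the authors' value of its summit over local background. Summits within 1000 bases of a RefSeq gene start made up 38.4% (95% Clopper-Pearson interval 34.2 to 42.8), 28.2% (23.9 to 32.7) and 50.7% (49.7 to 51.7) of the peaks on the reference chromosomes. In repeat 3, 24.2% of all summits lay within 500 bases upstream of a start and 22.9% within 500 downstream, while repeats 1 and 2 had 7.21% and 2.82% upstream and 26.1% and 21.4% downstream. Of the peaks of repeat 1, 90 (17.4%) overlapped a peak of repeat 3 by 1 base or more, which were 91 (0.913%) of the peaks of repeat 3. Repeats 1 and 2 shared 13 peaks, 2.51% of the first list and 3.02% of the second.

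**Figure D5:**
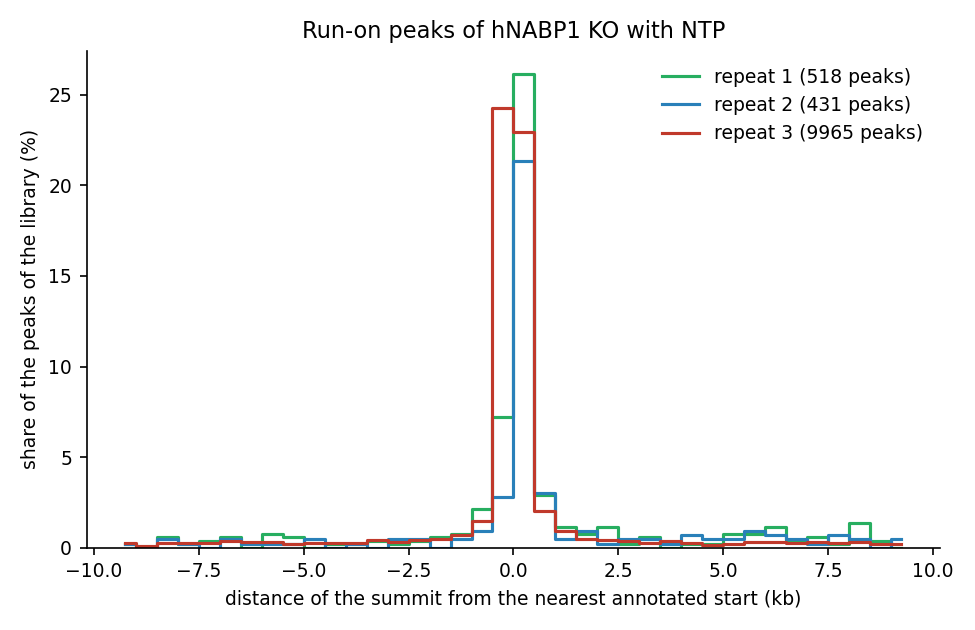
Share of the peaks of each hNABP1 KO with NTP library (y axis, percent) by distance of the summit from the nearest RefSeq gene start (x axis, kb, negative upstream), in bins of 0.5 kb. Summits farther out than the axis (15.8% to 17.4% upstream and 17.9% to 37.3% downstream) are not drawn. Among the bins drawn, the highest of each library is next to the start; repeat 3 (9965 peaks) has like shares on both sides, and repeats 1 and 2 (518 and 431 peaks) have more downstream.

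Genes with a peak of repeat 3 at their start were set beside the counts. Of 17309 genes with a promoter entry, 4341 (25.1%) had such a peak. Among the 50 non-ribosomal genes with the most counts, 37 had one in repeat 3 with NTP, against 11 and 8 in repeats 1 and 2 with NTP and 8, 9 and 10 without NTP. The genes with such a peak held 55.0% of the counts of repeat 3 with NTP, which is the library that gave the peaks and so no independent value. In the other 5 libraries they held between 23.6% and 30.3%, with 30.3% and 24.8% in repeats 1 and 2 with NTP and 24.8%, 26.1% and 23.6% without.

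The promoters of 5 genes are shown. They set 3 genes with many counts in repeat 3 with NTP (MAP2K7, P4HB and LONP1) beside the TIPARP locus, where the gene with the smallest p starts. These 3 were picked with their counts known. Of the named genes outside ribosomal RNA, MAP2K7 and P4HB had the most counts in repeat 3 with NTP, the library that also gave the peaks. LONP1 had 200 counts in that library, fewer than THAP7-AS1 with 214. MAP2K7, a kinase upstream of JNK, had 1, 0 and 278 counts with NTP and 0, 0 and 5 without. P4HB, a protein disulfide isomerase, had 0, 0 and 238 with NTP and 2, 2 and 0 without. TIPARP had 0, 0 and 42 counts with NTP and none without, unlike TIPARP-AS1, which had counts in all 6 libraries. Each sequence is from RefSeq on GRCh38.p14, runs 5′ to 3′ on the strand of the gene from 250 bases before to 50 bases after its start, and has in capitals the matches, on either strand, to a GC box (GGGCGG), an ETS core (CCGGAAG) or a TATA box (TATAAA).
TIPARP-AS1: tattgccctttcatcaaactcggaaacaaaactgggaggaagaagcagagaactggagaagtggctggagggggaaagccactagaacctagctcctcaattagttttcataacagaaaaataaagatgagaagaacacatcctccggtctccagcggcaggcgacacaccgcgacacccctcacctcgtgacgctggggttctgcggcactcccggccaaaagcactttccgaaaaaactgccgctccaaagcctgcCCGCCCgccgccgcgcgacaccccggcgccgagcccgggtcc
TIPARP: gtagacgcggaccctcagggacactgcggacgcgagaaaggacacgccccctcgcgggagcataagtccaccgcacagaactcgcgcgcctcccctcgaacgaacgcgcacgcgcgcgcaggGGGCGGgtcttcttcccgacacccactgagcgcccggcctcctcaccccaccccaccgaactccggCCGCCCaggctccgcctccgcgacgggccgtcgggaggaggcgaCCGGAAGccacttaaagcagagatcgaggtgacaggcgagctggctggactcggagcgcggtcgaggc
LONP1: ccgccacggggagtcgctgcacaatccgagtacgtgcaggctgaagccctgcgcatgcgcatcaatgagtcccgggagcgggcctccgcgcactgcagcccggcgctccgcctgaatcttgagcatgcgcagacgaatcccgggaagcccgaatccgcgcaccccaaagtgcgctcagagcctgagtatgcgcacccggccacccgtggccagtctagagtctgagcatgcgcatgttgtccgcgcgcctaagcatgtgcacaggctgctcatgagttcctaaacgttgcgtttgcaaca
MAP2K7: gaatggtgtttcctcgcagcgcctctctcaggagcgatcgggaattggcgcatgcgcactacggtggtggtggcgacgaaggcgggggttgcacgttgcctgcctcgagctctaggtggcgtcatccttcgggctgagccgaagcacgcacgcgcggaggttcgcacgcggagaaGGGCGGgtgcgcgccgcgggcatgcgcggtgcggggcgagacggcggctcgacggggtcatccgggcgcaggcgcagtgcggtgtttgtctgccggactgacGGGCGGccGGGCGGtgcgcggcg
P4HB: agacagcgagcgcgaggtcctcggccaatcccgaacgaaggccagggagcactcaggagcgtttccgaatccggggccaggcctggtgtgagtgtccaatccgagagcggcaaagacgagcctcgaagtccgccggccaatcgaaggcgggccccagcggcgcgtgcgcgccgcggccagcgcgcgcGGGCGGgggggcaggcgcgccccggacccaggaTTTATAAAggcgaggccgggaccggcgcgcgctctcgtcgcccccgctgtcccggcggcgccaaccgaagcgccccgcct

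The TIPARP window (chr3:156674340-156674639, plus strand) lay wholly inside a peak of repeat 3 with a fold of 24.4 (chr3:156674050-156674748). The TIPARP-AS1 window (chr3:156675664-156675963, minus strand) had 0 of its 300 bases in a peak of repeat 3. The peak at TIPARP nonetheless lies inside the TIPARP-AS1 gene (chr3:156673171-156675713), and to which of the genes its reads were counted was not tested. LONP1 (chr19:5720403-5720702, minus strand) had 237 bases of its window in a peak with a fold of 61.8. MAP2K7 (chr19:7903627-7903926, plus strand) and P4HB (chr17:81860486-81860785, minus strand) lay wholly inside peaks with folds of 97.2 and 97.7, among the higher values of that list, whose highest was 128. NABP1 had a peak with a fold of 7.85 at its start in repeat 3. NABP2 had one with a fold of 2.92 in repeat 1 (chr12:56224481-56224679), near an annotated start inside the gene, which begins at 56222015.

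Motif matches are a description of letters only. The GC box was found in 44.95% of 35116 promoter windows of this length and in 77.8% of the 7679 windows with a peak of repeat 3. The ETS core was found in 10.3% of all windows and 16.5% of those with a peak. The TATA box was found in 11.5% of all windows and 3.62% of those with a peak. Of the 5 windows shown, MAP2K7 had 3 GC boxes, TIPARP had 2 and an ETS core, TIPARP-AS1 and P4HB had 1 GC box each, and LONP1 had no match. P4HB had 2 TATA matches, which are the overlapping forms of the 2 strands at the same place.

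The difference that nucleotides made in hNABP1 KO cells was then compared with that in WT and hNABP2 KO cells. At 5272 counts, nucleotides went with 784 more, 102 fewer and 1004 more genes in repeats 1, 2 and 3 of hNABP1 KO cells. In WT cells the differences were 603, 5.92 and 739 genes more, and in hNABP2 KO cells 470, 102 and 67.7 more. The 3 differences of hNABP1 KO cells overlapped those of both (exact two-sided permutation test, p = 0.7 against WT and p = 0.4 against hNABP2 KO). For ribosomal RNA they were -5.31, -5.14 and 6.89 percentage points in hNABP1 KO cells, -5.35, -2.11 and -1.33 in WT and 0.392, -0.390 and -0.208 in hNABP2 KO cells. Without repeat 3 the means were -5.23 in hNABP1 KO, -3.73 in WT and 0.00121 in hNABP2 KO cells. Repeats 1 and 2 were thus lower with NTP in both hNABP1 KO and WT cells, and the higher share in repeat 3 was seen in hNABP1 KO cells (exact permutation test, p = 0.8 against WT and p = 1 against hNABP2 KO). With 3 differences against 3 this test cannot go below 0.1, so no class could pass it. Small nuclear RNA reached that p against each genotype (exact permutation test, p = 0.1, adjusted p = 0.8 and 1), with differences that did not overlap but rested on very few counts. Gene by gene, edgeR's quasi-likelihood test of the interaction called 0 of 211 genes against WT and 0 of 211 against hNABP2 KO (0.0% each), with 1 gene under an unadjusted p of 0.05 in each and 2 in each by DESeq2, which also called 0.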

How the data were processed

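Gene counts of 18 run-on libraries (6 groups of 3) were used as the authors deposited them, raw counts per gene symbol with no normalization, and per the submitters' processing notes reads were handled with cutadapt 1.18, Bowtie2 2.3.5, SAMtools and MACS2 2.2.1 on hg38. The sources used here do not give the counter, its strand setting or its treatment of multiply mapped reads. For each peak the authors deposited a fold (a ratio of its summit to local background) with -log10 p and q values. The labels name the kit as directional.

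Of 26475 genes, 23749 were matched to RefSeq by symbol, 1536 by synonym and 1190 were classed by symbol pattern; 4 rows carry repeated symbols. Genes were tested with edgeR 4.0.16 (quasi-likelihood, filterByExpr, TMM on the kept genes, Benjamini-Hochberg) over all 18 libraries, which share 1 estimate of the spread, with DESeq2 1.42.0 as an alternative. Library values were compared by exact permutation tests (Python 3.11.15, scipy 1.17.1). Expected genes at 6374 counts came from the hypergeometric formula, and leading-gene shares from the mean of 100 seeded thinnings to that depth. Scripts were tested on simulated data. There the gene test had to recover known changes only at a low set spread and at a greater depth than that of these libraries. Named genes were the 10 with the smallest p in each direction, the 3 with the most counts per class, and list members with 10 or more counts; other genes were named after their values were seen, and 2 genes are not reported here. The members and lists were chosen with earlier results of these data known. A count of 0 allows up to 3 counts. Intervals and these limits cover counting error only.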

Additional observations from a re-analysis of the deposited data

Results flagged for a closer look

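The nucleotide effect on TIPARP-AS1 went up in all 3 repeats of hNABP1 KO cells and down in all 3 of WT cells. The differences in CPM (with NTP minus no NTP) were 363, 745.4 and 122 in hNABP1 KO cells and -16.5, -438 and -249 in WT cells, whose counts were 5, 3 and 36 with NTP and 4, 5 and 9 without. The mean effects differed by 645 CPM. In edgeR's quasi-likelihood test the interaction had a log2 fold change of 2.46 ± 1.07 (SE) and an adjusted p = 0.999, so it did not pass.

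ACADVL showed the opposite order against hNABP2 KO cells. Its differences were -507, -461 and -1623 CPM in hNABP1 KO cells and 387, 924 and 127 CPM in hNABP2 KO cells, whose counts were 15, 10 and 22 with NTP and 4, 5 and 5 without. The mean effects differed by -1343 CPM. The interaction had a log2 fold change of -2.57 ± 0.917 (SE) with an adjusted p = 0.999 in edgeR's quasi-likelihood test. Both genes were picked out of all those named because of this pattern, from a few counts per library.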

How the results depend on the processing

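No gene was called under any alternative of the gene test except 1, and repeat 3 decided most turns of direction; the cause was not tested. On repeat 3 of both groups left out, RNA45S5 went to -0.63 and LOC100128494 to 0.0065 (log2), and with genes of 10 or more counts as well RNA45S5 was -0.58, SPNS2 0.19, OR52D1 0.14, DPP9-AS1 0.20 and CSNK1D 0.88. The same omission gave microRNA genes 0.00253 and uncharacterised genes 0.332 percentage points of share, and antisense, histone and ribosomal RNA genes 11.1, -1.01 and -0.0780 in detection. Without the 10 genes with the most counts, the share differences were 0.0706 (Pol III), 0.0234 (ribosomal RNA) and -0.00281 (small nucleolar RNA), and small nucleolar detection was -0.194. With classes by symbol pattern, other long non-coding RNA was 0.295. Asking for 2 counts gave microRNA, small nucleolar and uncharacterised genes -1.03, -0.0217 and -12.4 in detection, and the depth of the smaller library of each repeat gave small nucleolar genes -1.68. Against WT without repeat 3, Pol III was -1.02 and ribosomal RNA -1.50; against hNABP2 KO, antisense genes were 2.65, uncharacterised genes 1.32 and the antisense share of pairs 2.76.

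Leaving out 1 library at a time, RNA45S5 ranged from -0.12 (without repeat 3 with NTP) to 4.98 and CSNK1D from -1.91 to 1.41 (without repeat 3 without NTP). Class shares ranged from -0.713 to 0.229 (other long non-coding RNA), -0.0555 to 0.0562 (histone), -4.06 to 0.344 (ribosomal RNA), -0.0128 to 0.0310 (small nuclear RNA) and -0.0655 to 0.106 (small nucleolar RNA). Detection ranged from -34.7 to 5.49 (antisense), -1.06 to 1.88 (histone), -0.000365 to 0.621 (ribosomal RNA), -0.161 to 1.24 (small nuclear), -3.68 to 3.58 (small nucleolar) and -0.542 to 30.1 (uncharacterised). The difference in all genes detected stayed positive, from 326 to 1057, and was 1354 at the depth of the smaller library of each repeat.

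The labels' repeat numbers were not shown to pair the libraries of repeat 3. Deviations from the group means of same-numbered libraries correlated at 0.17, 0.12 and -0.02 in repeats 1, 2 and 3. Those of differently numbered libraries correlated at -0.20 to 0.09. The same-numbered value was thus the highest in repeats 1 and 2, while repeat 3 with NTP correlated best with repeat 1 without, at 0.04. With a replicate block nested in genotype edgeR called 0 genes (22 with an unadjusted p under 0.05). A replicate block shared by the genotypes, chosen after seeing the data, called 5 genes, all higher with NTP: ACTB, AHNAK, EIF4B, LONP1 and TIPARP-AS1 (smallest adjusted p 0.0437 in edgeR; 0.0437 to 1 over all alternatives). The exact sign-flip permutation test of the paired differences in genes detected gave p = 0.5, and with 3 pairs it cannot go below 0.25.

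The 115528 counts of repeat 3 with NTP against 6374 to 23865 in the no NTP libraries limit every comparison of levels, and a count of 0 in repeat 2 without NTP allows a share of up to 0.0471%. Depth, library and reaction cannot be told apart in repeat 3.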
